A study of Mus musculus with 2 samples.

Results

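Lcn2, Saa3, Hp, S100a8, S100a9, Slpi and Ptx3 encode secreted acute-phase and antimicrobial proteins, and were examined in classically activated macrophages with and without the cell-surface protein ninjurin 1. The genes were chosen by function, with their knockout and wild-type values in these same libraries already known, so every difference between genotypes given for them is a description and carries no test. Of the 7 genes, 6 were measured among the 17270 named genes of the deposited table, and the expression of S100a9 was not analysed here. Messenger RNA came from bone marrow cells of Ninj1+/+ or Ninj1-/- mice aged 6 weeks, which were cultured for 7 days in M-CSF. Activation was with interferon-gamma (20 ng/ml) plus lipopolysaccharide (500 ng/ml). Both genotypes received the same activation, and no resting macrophages were analysed here, so the values show levels after activation and not induction. Each genotype is registered as 1 sample, but the table has 2 columns for each, and the sources used here do not say whether these are separate mice, cultures or libraries, nor how the Ninj1 allele was made. The spread between columns may therefore be technical.

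Acute-phase proteins are secreted in quantity during infection and injury, by the liver and also by macrophages. Many of their genes are switched on by NF-kB together with C/EBP factors and STAT3, downstream of interleukin-1, tumour necrosis factor and interleukin-6. The antimicrobial members act by starving microbes of metals, by marking them for uptake or by restraining host proteases. Lcn2 encodes lipocalin 2, which binds the siderophores that bacteria use to take up iron. Saa3 encodes the serum amyloid A protein that mouse macrophages and other cells outside the liver make. Hp encodes haptoglobin, which captures free haemoglobin, and S100a8 and S100a9 encode the 2 chains of calprotectin, a metal-binding protein best known from neutrophils. Slpi encodes an inhibitor of neutrophil serine proteases, and Ptx3 encodes a long pentraxin that binds microbes and complement.

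Upstream windows were found for 6 of the 7 genes, and the 4 measured genes whose window holds a C/EBP motif are shown, to set out where in each the match lies. The 250 bases upstream of the annotated start are printed from 5′ to 3′ on the gene's strand (RefSeq, GRCm38.p6, the same build as mm10), with the C/EBP motif TTGCNNAA, read on either strand, in capitals. The windows lie at chr2:32387740-32387989 on the minus strand (Lcn2), chr7:46715677-46715926 on the minus strand (Saa3), chr2:164356508-164356757 on the minus strand (Slpi) and chr3:66219637-66219886 on the plus strand (Ptx3). The Saa3 window lies within the span of a longer annotated Saa3 transcript.
Lcn2: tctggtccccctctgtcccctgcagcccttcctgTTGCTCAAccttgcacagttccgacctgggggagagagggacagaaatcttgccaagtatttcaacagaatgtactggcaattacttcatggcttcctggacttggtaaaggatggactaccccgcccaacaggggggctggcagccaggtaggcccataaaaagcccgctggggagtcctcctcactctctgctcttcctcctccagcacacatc
Saa3: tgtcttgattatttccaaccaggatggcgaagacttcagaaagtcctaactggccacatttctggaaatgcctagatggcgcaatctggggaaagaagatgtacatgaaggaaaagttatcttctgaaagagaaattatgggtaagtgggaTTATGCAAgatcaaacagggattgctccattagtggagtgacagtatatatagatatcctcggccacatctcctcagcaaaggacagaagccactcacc
Slpi: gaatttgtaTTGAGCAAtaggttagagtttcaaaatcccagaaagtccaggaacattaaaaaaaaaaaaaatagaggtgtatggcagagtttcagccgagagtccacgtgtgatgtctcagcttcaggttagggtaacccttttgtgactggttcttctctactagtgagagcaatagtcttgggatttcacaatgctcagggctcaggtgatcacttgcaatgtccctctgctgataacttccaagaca
Ptx3: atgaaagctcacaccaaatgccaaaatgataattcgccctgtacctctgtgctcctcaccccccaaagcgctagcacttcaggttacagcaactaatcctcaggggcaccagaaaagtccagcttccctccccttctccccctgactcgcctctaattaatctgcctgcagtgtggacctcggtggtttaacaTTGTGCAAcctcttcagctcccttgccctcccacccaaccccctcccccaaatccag

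The match was TTGCTCAA in Lcn2, 216 to 209 bases before the start, and TTATGCAA in Saa3, 99 to 92 bases before it. Slpi held TTGAGCAA at 241 to 234 bases and Ptx3 held TTGTGCAA at 57 to 50 bases before the start. The S100a9 window also had a match, TTGCTTAA at 236 to 229 bases, and the S100a8 window had none. Of 6 windows found for the 7 genes, 5 therefore held the motif, against 9.56% of all 32851 windows in the reference table. The NF-kB motif, GGGA and CC with any 4 bases between them, in 17.6% of all windows, and the STAT motif TTCNNNGAA, in 7.02%, were in none of the 6, and the TATA box TATAAA, in 12.4%, was in 1, that of S100a8. No match overlapped another in these 6 windows. A match is a run of letters and not a measured binding site, and its absence says only that the letters are not in the window.

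Depth was 46798381 to 62684262 recovered reads per column, where recovered reads are normalized counts divided by the worth of 1 read. Ninj1 itself stood at 28850 and 31158 normalized counts in the wild-type columns and at 3519 and 4086 in the knockout columns, where the mean was 12.7% of wild type. Macrophage markers were present in every column: Adgre1, Csf1r, Cd68, Lyz2, Itgam, Mertk, Fcgr1 and Cd14 summed to between 974636 and 1063990 normalized counts. The limma fit on log2(normalized count + 1) took the 12872 genes that reached 20 reads in some column. A log2 ratio is the knockout mean less the wild-type mean on this scale. A gene was called at a Benjamini-Hochberg adjusted p below 0.05 over all these genes.

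The genes fell into an abundant pair and 4 scarce transcripts. Compared per kilobase of the longest annotated transcript, the wild-type level was 66685 ± 3208 normalized counts per kb for Saa3 and 9778 ± 297 for Lcn2 (SD, n = 2 columns). On the same scale it was 160 ± 70.3 for S100a8, 38.7 ± 13.7 for Hp and 20.5 ± 4.77 for Ptx3. Slpi came between Hp and Ptx3, at 22.2 and 42.0 in the 2 wild-type columns. Saa3 ranked 42 and Lcn2 495 of 16794 genes by this level. The wild-type columns of Saa3, Lcn2 and S100a8 were apart from those of the next gene in the order, whereas Hp overlapped Slpi and Slpi overlapped Ptx3. The level of Saa3 was 6.82 times that of Lcn2 in wild type and 7.78 times in the knockout. Per kilobase of coding sequence it was 36.5 and 41.6 times, and Slpi then came before Hp. The Saa3 transcript used has 2200 bases and the longest coding sequence of any Saa3 transcript 366, where 915 and 815 were used for Lcn2. A length of 815 is not a whole number of codons, so the Lcn2 coding sequence used is not a complete reading frame. The ratios per coding length are therefore uncertain. Those per transcript length assume that the longest transcript is the one expressed, which was not tested. The scarce genes had at most 72 reads in any column.

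**Figure D1:**
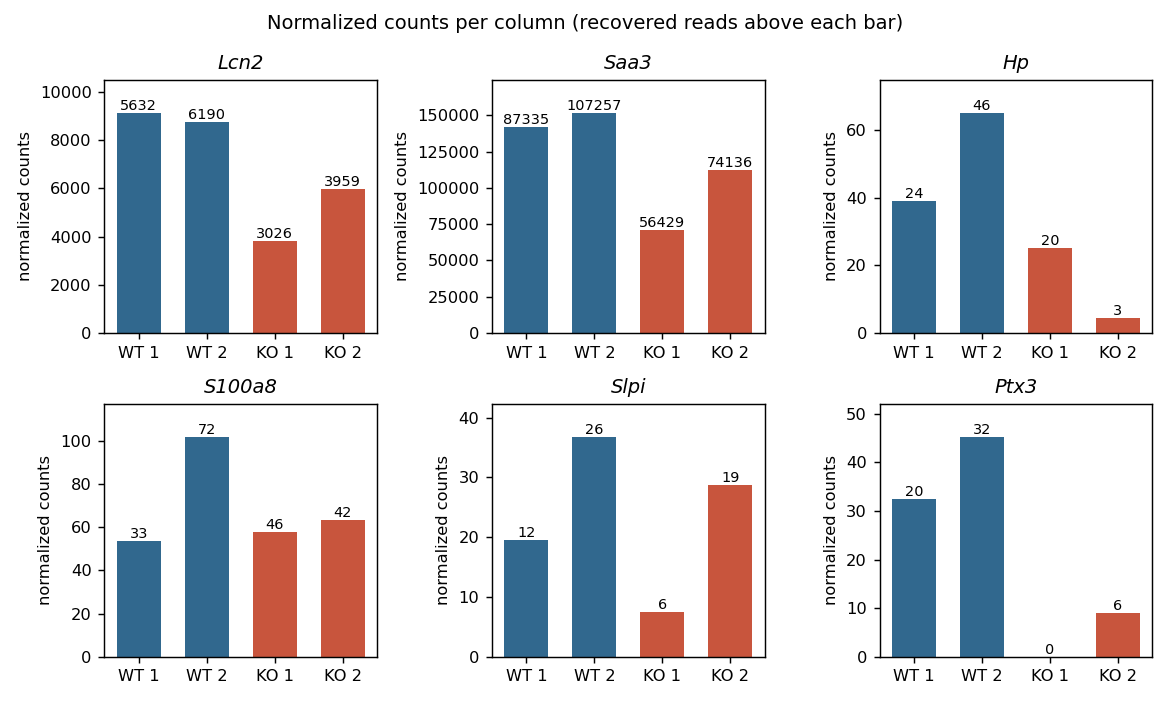
Normalized counts (y axis, each panel from 0) of the 6 measured genes in wild-type (WT, blue) and knockout (KO, red) columns, with recovered reads above each bar. Lcn2 stands at 9139 and 8755 in wild type and 3815 and 5982 in the knockout, while the 4 scarce genes rest on 72 reads or fewer.

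Lcn2 (Entrez 16819; mm10 chromosome 2, 32384637 to 32387739) was measured at 9139 and 8755 normalized counts in the wild-type columns and at 3815 and 5982 in the knockout columns. Both knockout columns lay below both wild-type columns, with column 1 the lower of the knockout pair. The knockout mean was 54.8% of the wild-type mean, and the log2 ratio was -0.90 (SE 0.14). The wild-type columns differed 1.04-fold and the knockout columns 1.57-fold. The ratio was -0.58 without knockout column 1 and -1.23 without knockout column 2.

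Saa3 (Entrez 20210; mm10 chromosome 7, 46711998 to 46719615) stood at 141716 and 151697 normalized counts in wild type and at 71144 and 112026 in the knockout. Its columns did not overlap between genotypes either, and knockout column 1 was again the lowest. The knockout mean was 62.4% of the wild-type mean and the log2 ratio was -0.72 (SE 0.15), which became -0.39 without knockout column 1 and -1.04 without knockout column 2. By wild-type level it was in position 54 of all genes, so the ratio rests on at least 56429 reads in each column. In bulk RNA, fewer cells that express a gene and less RNA per cell cannot be told apart, for these and all genes below.

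Hp (Entrez 15439; mm10 chromosome 8, 109575128 to 109579172) had 38.9 and 65.1 normalized counts in wild type and 25.2 and 4.53 in the knockout, from 24, 46, 20 and 3 reads. Here the lowest value was in knockout column 2, unlike Lcn2 and Saa3. The log2 ratio was -2.09 (SE 0.72), and -0.97 without knockout column 2 and -3.21 without knockout column 1.

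Ptx3 (Entrez 19288; mm10 chromosome 3, 66219887 to 66225806) had 32.5 and 45.3 normalized counts in wild type, 0 in knockout column 1 and 9.07 in knockout column 2. These are 20, 32, 0 and 6 reads. A count of 0 allows up to 3.78 normalized counts in that column, from counting error only and if reads were independent. Mates appear to be counted separately, so the limit is higher than that. The log2 ratio of -3.63 (SE 1.09) depends on the pseudocount: it was -5.33 with a pseudocount of 0.1 and -3.17 by edgeR. Ptx3 entered the fit only through its wild-type columns, and a filter passed in that way favours genes that are lower in the knockout.

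S100a8 (Entrez 20201; mm10 chromosome 3, 90669071 to 90670034) had 53.5 and 102 normalized counts in wild type and 58.0 and 63.5 in the knockout. The knockout columns lay between the wild-type columns, the log2 ratio was -0.28 (SE 0.38), and it turned to 0.18 without wild-type column 2. Slpi (Entrez 20568; mm10 chromosome 2, 164354070 to 164356507) had 19.5 and 36.8 in wild type and 7.56 and 28.7 in the knockout. Its columns also overlapped, with a log2 ratio of -0.80 (SE 0.73) that turned to 0.095 without knockout column 1. Slpi entered the fit only through wild-type column 2.

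**Figure D2:**
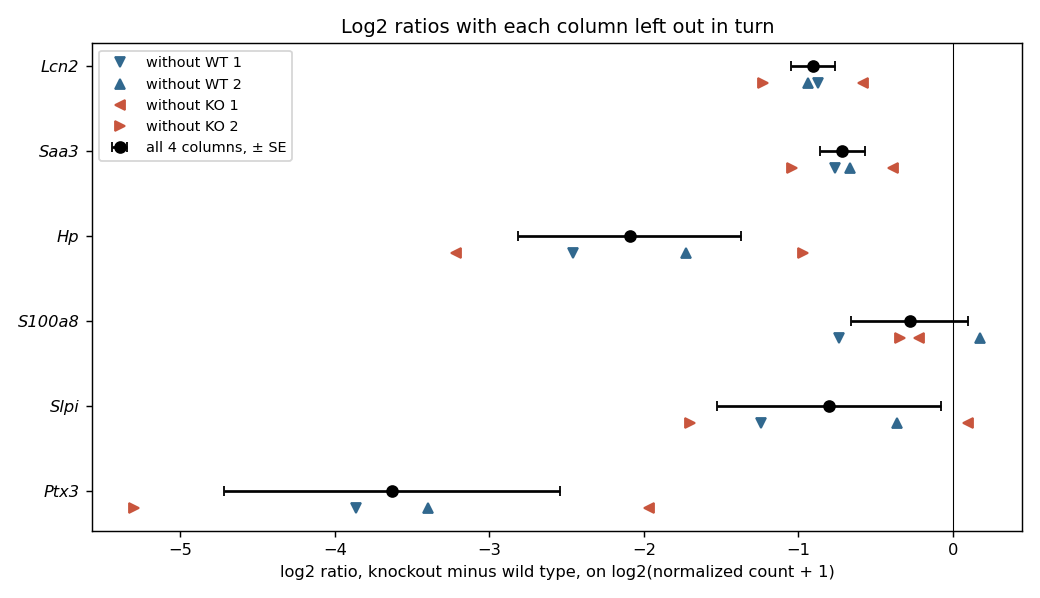
Log2 ratio (x axis, knockout minus wild type on log2(normalized count + 1)) of each measured gene with all 4 columns (black, ± SE) and with each column left out (triangles; WT, wild type; KO, knockout). Lcn2 ranges from -1.23 to -0.58 and Saa3 from -1.04 to -0.39, while S100a8 and Slpi each cross 0 once.

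All 6 ratios were below 0, with a median of -0.85 against -0.0034 over all genes in the fit. Ptx3 and Slpi entered the fit only through wild-type columns, which favours ratios below 0, so their signs add nothing. The median lies between the ratios of Lcn2 and Slpi and so rests in part on such a gene. Both knockout columns lay below both wild-type columns for 4 of the 6, Lcn2, Saa3, Hp and Ptx3, where 25.6% of all genes did so. The limma fit called 2 of the 6, Lcn2 and Saa3, where it called 1.24% of all genes lower. Since the genes were picked with this contrast known, nothing is read from these counts.

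**Figure D3:**
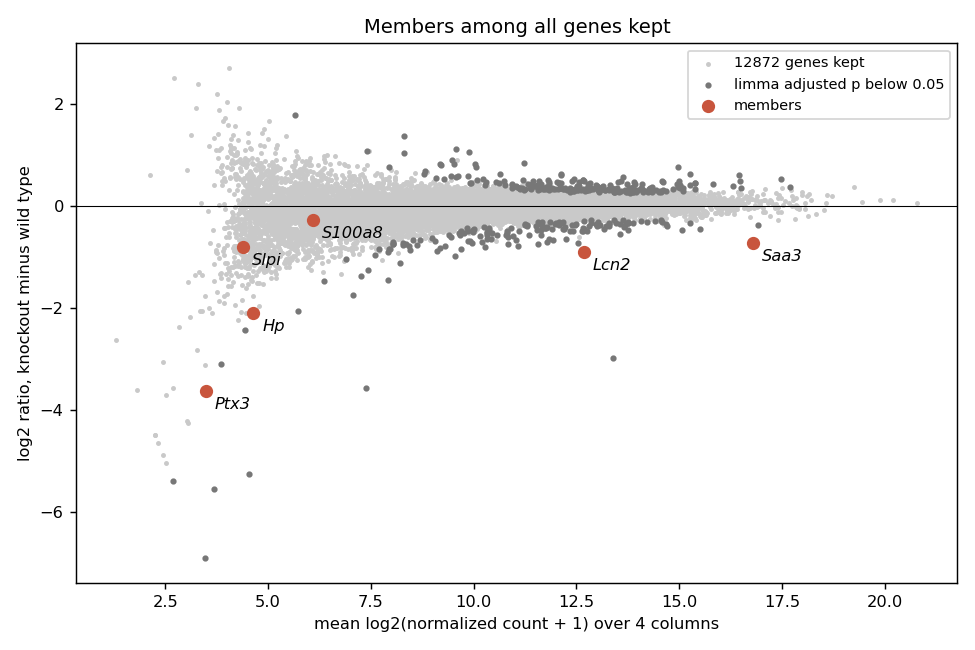
Log2 ratio (y axis, knockout minus wild type) against mean log2(normalized count + 1) over 4 columns (x axis) for the 12872 genes in the limma fit (light grey), those called (dark grey) and the 6 measured genes (red). Saa3 and Lcn2 sit at -0.72 and -0.90 among abundant genes, where most genes lie close to 0, whereas the other 4 sit where low counts spread the ratios.

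Likeness of column profiles was taken as the root mean square difference of log2(normalized count + 1) centred on each gene's mean over the 4 columns, among 10364 genes averaging at least 100 reads. The genes nearest to Lcn2 were Ceacam16 (0.088), Plekhg4 (0.098) and Saa3 (0.11). Nearest to Saa3 were Bdh1 (0.073), Cdhr4 (0.074) and Fam189b (0.081), and Lcn2 came in position 6. Both are high in the wild-type columns, lowest in knockout column 1 and intermediate in knockout column 2. The nearest to S100a8 were Cryl1 (0.083), Klhl11 (0.11) and Ptges (0.12). The scarcer genes had no close neighbour: the nearest were Rbfox2 (0.32), Serpinb2 (0.33) and Fgr (0.34) for Slpi, Fn1 (0.82), Fry (0.91) and Scarf1 (0.93) for Hp, and Ninj1 (1.16), Steap4 (1.38) and Enpp2 (1.40) for Ptx3. These distances rest on 4 columns and are a description.

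Genes related to the 7 by function, none of them a member, were tested in the same fit. Of 141 such genes 120 were in the table and 89 had enough reads, of which 5 rose, 4 fell and 80 did not pass. The called share was 10.1%, where 2.91% of all genes were called, 1.67% higher and 1.24% lower. The lists were chosen with earlier results of these data known, so this share is a description and nothing is read from it. The median log2 ratio of the 89 was 0.038. How many of all genes had an unadjusted p under 0.05 was not counted. Counts at that level, here and below, are therefore a description and nothing is read from them. Leaving out wild-type column 1, or knockout column 1, left no related gene called lower by limma, with 11 and 8 of them lower at an unadjusted p under 0.05. With all columns, edgeR and DESeq2 each called 4 lower, but those of DESeq2 did not include Steap4, to which it gave no adjusted p, and included Cebpd.

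Other acute-phase genes included 3 that fell. Cp, encoding the copper-carrying ferroxidase ceruloplasmin, went from 7162 and 5258 normalized counts to 3717 and 4095; its ratio was -0.65 on the log2 scale with SE 0.11 (adjusted p = 0.0104 by limma). Cfb, encoding complement factor B, went from 17460 and 15469 to 11004 and 12693; its ratio was -0.48 on the log2 scale with SE 0.083 (adjusted p = 0.0104 by limma). Steap4, encoding a metalloreductase of inflamed tissue, went from 248 and 246 to 63.0 and 142; its ratio was -1.37 on the log2 scale with SE 0.31 (adjusted p = 0.0347 by limma). In all 3 the knockout columns lay below the wild-type columns, and knockout column 1 was the lowest, as for Lcn2 and Saa3. By likeness of column profile among 10364 genes, Steap4 was in position 211 for Lcn2 (0.30) and in position 2156 for Saa3 (0.38). Leaving out either wild-type column 1 or knockout column 1 ended the calls of Cp, Cfb and Steap4. Steap4 also lost its call when wild-type column 2 was left out, or when no filter on low reads was used, and DESeq2 gave it no adjusted p.

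No acute-phase gene was called higher by limma, edgeR or DESeq2. The other 13 acute-phase genes with enough reads did not pass, and the median of all 16 was -0.12. Saa1, a paralog of Saa3, had 89.2 and 49.5 normalized counts in wild type and 22.7 and 45.3 in the knockout, and its log2 ratio of -1.03 did not pass (adjusted p = 0.244 by limma). Saa1 and Saa2 are near-identical copies, so counting could have split their reads, and Saa2 was at 0 in all columns. Itih4, with 31 reads or fewer in each column, had a log2 ratio of -1.72 (adjusted p = 0.233 by limma). Itih4 and Orm2, both in the median above, entered the fit only through wild-type column 2. A filter passed in that way favours genes that are lower in the knockout, so nothing is read from the Itih4 ratio. Abundant acute-phase genes without a call were C3 (log2 ratio 0.062), the lipopolysaccharide co-receptor Cd14 (0.20), the interleukin-1 receptor antagonist Il1rn (-0.013) and Serpina3g (0.022), the last from a family of close copies. In Steap4 the upstream window held the C/EBP motif as TTGCGAAA at 87 to 80 bases, and 1 of the windows of Cp held it as TTTTGCAA at 70 to 63 bases before the start. Unlike the windows of Lcn2, Saa3, Slpi and Ptx3, that of Steap4 also held 2 NF-kB matches, 1 STAT match and 1 TATA box. The same Cp window also held 1 NF-kB match and 2 overlapping TATA boxes. No window was found for Cfb, and acute-phase genes without a call were not searched. Whether the motif goes with lower levels was therefore not tested.

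**Figure D4:**
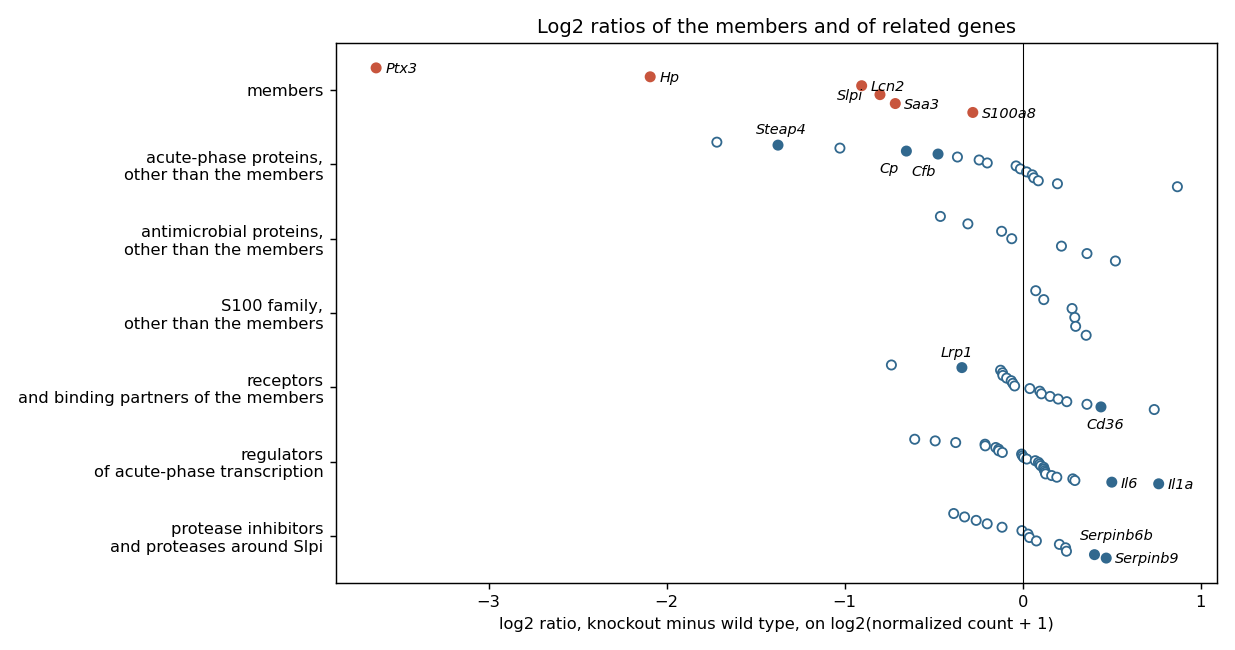
Log2 ratio (x axis, knockout minus wild type) of the 6 measured genes (red, not tested) and of related genes by list (blue; filled where limma called the gene over all genes). Cp, Cfb and Steap4 are the called acute-phase genes, all below 0, and Il6 and Il1a are the called regulators, both above 0.

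Antimicrobial genes and other S100 genes gave no call. Of 25 antimicrobial genes listed, 7 had enough reads and none passed by limma, edgeR or DESeq2, with 3 at an unadjusted limma p under 0.05. The macrophage lysozyme Lyz2 had a log2 ratio of 0.22 and the pore-forming Mpeg1 one of -0.062. The largest ratios were those of the ribonucleases Ang (0.52, limma adjusted p = 0.626) and Rnase4 (-0.46, adjusted p = 0.12). Of 15 S100 genes listed, 6 had enough reads and none passed by limma, edgeR or DESeq2, with 4 at an unadjusted limma p under 0.05. All 6 ratios were above 0, with a median of 0.28 against -0.0034 over all genes in the fit. The share of all genes above 0 was not counted, so nothing is read from this common sign. The largest ratios were those of S100a10 (0.36, limma adjusted p = 0.0943) and S100a6 (0.30, adjusted p = 0.113). Leaving out wild-type column 2 gave 4 S100 genes called higher, and so did a replicate block on the column number.

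Among receptors and binding partners, 1 of 18 rose, 1 fell and 16 did not pass. Cd36, a scavenger receptor that also binds serum amyloid A, rose by 0.44 on the log2 scale (SE 0.081, limma adjusted p = 0.014), and Lrp1, which takes up haem bound to haemopexin, fell with a ratio of -0.34 (SE 0.068, limma adjusted p = 0.0203). Neither was called when wild-type column 1 or knockout column 1 was left out, or after removal of the trend in GC content and transcript length. Lrp1 was also not called when knockout column 2 was left out. The formyl peptide receptor Fpr2, which binds serum amyloid A, had a ratio of 0.20 and Tlr4, the lipopolysaccharide receptor, one of -0.045. The lipocalin receptor Slc22a17 and the haemoglobin scavenger receptor Cd163 were below 20 reads in every column. Ager (0.74, limma adjusted p = 0.274) and Tnfaip6 (-0.74, adjusted p = 0.487) had the largest ratios. Tnfaip6 passed the filter on reads only through wild-type columns, so nothing is read from its ratio.

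Of 28 regulators with enough reads, 2 rose, none fell and 26 did not pass by limma, with 8 at an unadjusted p under 0.05. None fell by edgeR, 1 fell by DESeq2, and DESeq2 called 4 higher. Leaving out knockout column 2 gave 2 called lower by limma. Il6 went from 77080 and 77678 to 112232 and 106768 normalized counts; its ratio was 0.50 on the log2 scale with SE 0.076 (adjusted p = 0.00565 by limma). Il1a went from 21376 and 28131 to 36905 and 46978; its ratio was 0.76 on the log2 scale with SE 0.12 (adjusted p = 0.00565 by limma). Both cytokines induce acute-phase genes, and both were higher in each knockout column than in either wild-type column. The call of Il6 was lost when knockout column 1 was left out, and that of Il1a when wild-type column 1 was. The transcription factor genes Cebpb (0.12), Nfkbiz (0.12), Rela (0.095) and Stat3 (-0.15) did not pass. Lif had a ratio of -0.61 (limma adjusted p = 0.108).

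Cebpd, encoding C/EBP delta, was singled out after its values were seen. It stood at 2161 and 2157 normalized counts in wild type and 1294 and 1822 in the knockout, a log2 ratio of -0.49 (SE 0.13) that narrowly missed the threshold (limma adjusted p = 0.053). Its adjusted p ranged from 0.0031 to 0.491 over the alternatives, and it was called lower in 3 of 13, among them DESeq2 (adjusted p = 0.0247). Its column profile was in position 12 by likeness to Saa3 (0.13) and in position 53 by likeness to Lcn2 (0.21).

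**Figure D5:**
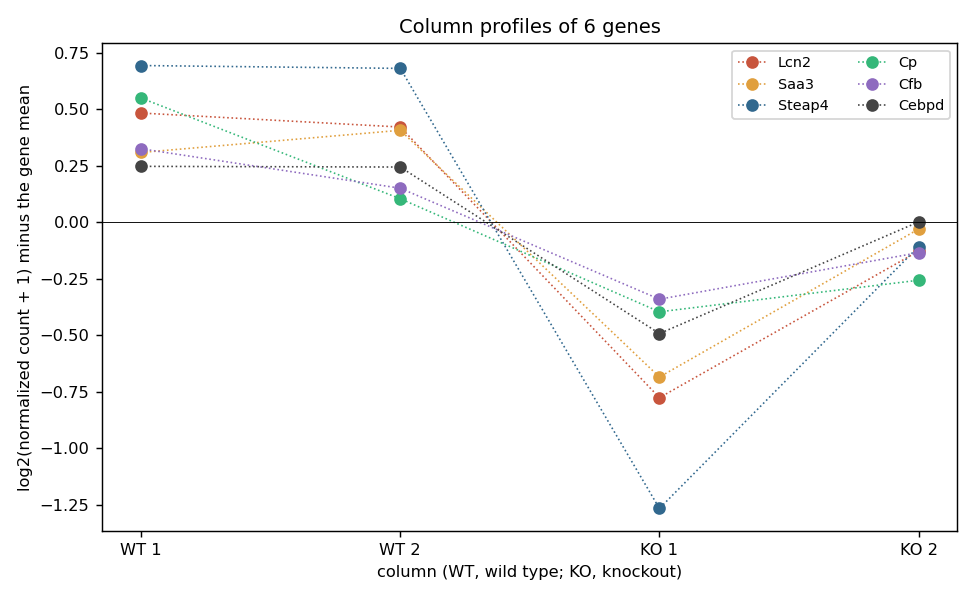
Log2(normalized count + 1) minus the gene's mean over the 4 columns (y axis) in wild-type (WT) and knockout (KO) columns for Lcn2, Saa3, Steap4, Cp, Cfb and Cebpd; dotted lines only join the points of a gene. All 6 genes are lower in both knockout columns than in either wild-type column and lowest in knockout column 1. They were picked with their values known, and 25.6% of all genes are likewise lower in both knockout columns, so nothing is read from the shared order.

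Among protease inhibitors and proteases related to Slpi, 2 of 14 rose, none fell and 12 did not pass by limma, with 5 at an unadjusted p under 0.05. None fell by edgeR or DESeq2, and 1 was called lower by limma when wild-type column 2 was left out. Serpinb9, an inhibitor of granzyme B, rose by 0.47 (SE 0.067, limma adjusted p = 0.00537), and Serpinb6b, from a family of close copies, rose by 0.40 (SE 0.074, limma adjusted p = 0.0136). Leaving out knockout column 1 ended both calls, and that of Serpinb6b was also lost when wild-type column 1 was left out or the GC and length trend was taken off.

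Neutrophils and stromal cells also make several of the 7 proteins, so their markers were read in the same columns. Of 16 neutrophil markers 8 were in the table, and Mpo, Camp, Ltf, Cxcr2 and Padi4 were below 20 reads in every column, at most 24.0 normalized counts. Of the 3 with enough reads, Csf3r, the receptor of granulocyte colony-stimulating factor, fell from 5113 and 4003 to 2602 and 2947 (log2 ratio -0.71, limma adjusted p = 0.00565). The other 2, Mmp8 (log2 ratio -0.055, limma adjusted p = 0.907) and Mmp9 (-0.50, adjusted p = 0.229), did not pass. Csf3r was not called when either wild-type column 1 or knockout column 1 was left out. The 8 summed to 5595 and 4602 in wild type and to 3108 and 3349 in the knockout, mostly Csf3r. All 14 stromal markers were in the table and summed to 940 and 1113 in wild type and to 546 and 462 in the knockout. Of the 14, 10 had enough reads. Among these, Col1a1, Col1a2, Col3a1, Sparc, Postn and Bgn passed the filter on reads only through wild-type columns. A filter passed in that way favours genes that are lower in the knockout. Their differences are therefore given as values, and their signs and p-values are not counted. Col1a1 had 149 and 136 normalized counts in wild type and 2.52 and 3.02 in the knockout, and Bgn had 66.5 and 115 against 2.52 and 0. Col1a2, at 97.4 and 146 in wild type, Col3a1, at 29.2 and 28.3, and Postn, at 16.2 and 28.3, were at 0 in both knockout columns. These collagen and matrix genes were thus at or near 0 in the knockout. Sparc had 16 and 27 reads in wild type and 2 and 2 reads in the knockout. Of the stromal markers with 20 reads in a knockout column, Dcn (log2 ratio -0.66), Acta2 (-0.63), Pdgfrb (-0.38) and Lum (0.19), none was called by limma, and Dcn and Acta2 had an unadjusted p under 0.05. Lum, the most abundant stromal marker, had 214 and 296 in wild type and 318 and 260 in the knockout. The part of these cells in the values of the 7 genes was not tested.

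Of the 8 macrophage markers, 4 had ratios above 0 and 4 below 0, and 6 did not pass by limma. Over all genes limma called 1.24% lower and 1.67% higher. Nothing is read from the counts of called markers, for these or any other cell type. Itgam (log2 ratio -0.37, limma adjusted p = 0.0419) and Mertk (-0.48, adjusted p = 0.0285) fell. Neither was called when wild-type column 1, knockout column 1 or knockout column 2 was left out, and Itgam was also not called with no filter on low reads or after removal of the GC and length trend. Of 7 dendritic cell markers, 4 had enough reads, while Flt3 and Zbtb46 were below 20 reads in every column and Cd209a was at 0. Xcr1 (0.51, limma adjusted p = 0.00537) and Ccr7 (0.64, adjusted p = 0.00565) rose, and Xcr1 was not called when knockout column 1 was left out. Clec9a (0.18) and Itgax (0.39) did not pass by limma. Monocyte, mast cell and basophil markers gave no call by limma, with 2 of 3 and 0 of 1 at an unadjusted p under 0.05. No erythroid or lymphocyte marker reached 20 reads in a column.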

How the data were processed

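Directional mRNA libraries were made from activated bone-marrow macrophages, per the labels' protocols. Values in the deposited table are a normalized signal. From the values alone, each column appears to be read counts scaled by a single factor, because 100% of the entries came out as whole reads within 0.01 reads when 1 read was taken as worth 1.26 to 1.62. Of recovered counts from 1 to 19, 72.7% were even, so mates appear to be counted separately and fragments are fewer than reads. Per the submitters' processing notes, StringTie and mm10 were used, in roles that are not stated; the aligner and counter are not given in these sources. Columns without KO in their name were taken as wild type. One row without a symbol was left out.

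Limma 3.58.1 with an intensity trend was fitted to log2(normalized count + 1) for the 12872 genes that reached 20 reads in some column, with Benjamini-Hochberg adjustment. The alternatives tried were, on recovered reads, the quasi-likelihood test of edgeR 4.0.16 and the Wald test of DESeq2 1.42.0, and otherwise a pseudocount of 0.1, TMM scaling, median centring, no filter, at least 100 reads, a replicate block, each column left out, and, chosen after seeing the data, removal of GC and length trends. Where 1 column of a genotype remained, its spread was taken to equal that of the other genotype. The tests were tested on simulated data. The genes and lists were chosen with earlier results of these data known. Named genes were the 7, each list's called genes and 2 largest ratios, each marker list's called genes and most abundant gene, and the 3 nearest profiles; other named genes were chosen after their values were seen. Lengths came from GENCODE M21, and gene positions from RefSeq on GRCm38.p6, which matched 97.2% of identifiers. A planned comparison of protein sequences was not made.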

Additional observations from a re-analysis of the deposited data

How the results depend on the processing

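The Lcn2, Saa3, Hp and Ptx3 ratios stayed below 0 in every alternative that gave a value. With a column left out, the S100a8 ratio ran from -0.74 to 0.18 (wild-type column 2 out) and that of Slpi from -1.70 to 0.095 (knockout column 1 out). The marker Lum ran from -0.041 (wild-type column 1 out) to 0.42, and Kit from -0.43 to 0.22 (wild-type column 1 out; 0.088 with knockout column 1 out). The calls of Lcn2 and Saa3 were lost by DESeq2 and when wild-type column 1 was left out. Saa3 was also not called when wild-type column 2 or knockout column 1 was left out; the cause was not tested. Over all genes, 215 were called higher and 160 lower. The counts were 341 higher by DESeq2, 122 and 100 without a filter, and 99 and 91 after removal of GC and length trends. With a column left out they ran from 14 to 355 higher and from 3 to 265 lower. Of related genes, 5 were called higher and 4 lower; 8 were called higher by DESeq2 and 3 with the trend removed, and 1 to 10 higher and 0 to 5 lower with a column left out. The labels give the columns no number, and the correlation of same-numbered columns over genes was -0.034. A replicate block on the column number gave 280 genes lower and 9 related genes higher. Levels per coding length kept Saa3, Lcn2 and S100a8 as the 3 highest and put Slpi before Hp. Low counts limit Hp, S100a8, Slpi and Ptx3.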
